A study of Homo sapiens with 4 samples.

Results

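The genes described here are miRNA genes that had a SMAR1 peak close upstream of them. SMAR1 (BANP) is a nuclear matrix protein that binds matrix attachment regions of chromatin and interacts with the tumor suppressor p53. Its binding was measured by chromatin immunoprecipitation followed by sequencing (ChIP-seq) in HCT116, a human colorectal carcinoma cell line, with p53 (HCT116 p53+/+, wild type) and without it (HCT116 p53-/-, null). Neither line had been treated. Each line gave 1 anti-SMAR1 library, whose peak list was analysed, and 1 library with normal rabbit IgG, not analysed here. The labels do not say whether the p53-/- line was 1 clone. A gene was a member if its annotated type was miRNA, its name began with MIR and a peak of either list was centred 0 to 10 kb upstream of its start on its own strand. The rule left out 48 genes in a window on the long arm of chromosome 19 that holds miRNA clusters. The members were thus chosen by the position of the peaks. Of 1276 miRNA genes that could qualify, 70 were members (5.49%), 36 in HCT116 p53+/+ and 46 in HCT116 p53-/-. These counts therefore describe the lists and test nothing. Since each line had 1 library, no difference between the lines has a replicate check.

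A miRNA is cut from a hairpin in a longer primary transcript by Drosha and then Dicer, and its seed (bases 2 to 8) pairs with target mRNAs. Many hairpins lie in introns of protein-coding or lncRNA genes, called hosts, and are usually made from the host's transcript. Others are transcribed on their own, often several from 1 primary transcript. The gene start in the annotation is the first base of the hairpin and not the start of the primary transcript. A peak upstream of the hairpin may therefore lie in the body of the host, at its promoter or at the promoter of a neighbour.

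The sequences under the peaks showed that the members had upstream peaks of different kinds. The first kind was a short peak that was mostly a simple repeat of TC or TG, called here a T(C/G) run. The sequences below are from the plus strand of GRCh37 (the hg19 build of the lists), and capitals mark the longest uninterrupted T(C/G) run of either strand, so that a run on the minus strand reads as GA or CA. They are shown because they are the peaks of the 4 members that the study named and, as examples of a repeat peak in both lists, those of MIR3146 and of MIR199A2 and MIR214.
MIR32, HCT116 p53+/+, chr9:111813578-111813633: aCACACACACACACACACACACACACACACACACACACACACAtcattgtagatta
MIR100, HCT116 p53+/+, chr11:122029293-122029357: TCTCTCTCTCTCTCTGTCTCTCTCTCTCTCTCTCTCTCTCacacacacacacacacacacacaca
MIR221, HCT116 p53-/-, chrX:45606263-45606345: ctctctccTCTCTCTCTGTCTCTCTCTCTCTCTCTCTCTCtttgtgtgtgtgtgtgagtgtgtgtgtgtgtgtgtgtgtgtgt
MIR206, HCT116 p53-/-, chr6:52001105-52001159: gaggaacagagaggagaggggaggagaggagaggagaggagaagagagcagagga
MIR3146, HCT116 p53+/+, chr7:19753746-19753791: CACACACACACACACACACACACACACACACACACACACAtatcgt
MIR3146, HCT116 p53-/-, chr7:19753741-19753787: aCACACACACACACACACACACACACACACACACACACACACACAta
MIR199A2 and MIR214, HCT116 p53+/+, chr1:172114430-172114582: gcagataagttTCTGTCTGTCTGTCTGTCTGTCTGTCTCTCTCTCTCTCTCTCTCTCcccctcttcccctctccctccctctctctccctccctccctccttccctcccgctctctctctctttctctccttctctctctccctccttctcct
The runs of MIR32 and MIR3146 were CA repeats of the plus strand. Those of MIR100 and MIR221 were TC repeats broken by a single TG, with a CA or TG repeat beside them. The run of MIR199A2 passed from TCTG units into a TC repeat. The MIR206 peak was rich in GA but was interrupted so often that its longest run was 6 bp.

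The second kind lay at the start of a protein-coding or lncRNA gene, was longer and held no long run. The peaks below were chosen to show this kind because they overlap no annotated UTR and are at most 145 bp long, so MIR3944 is shown after its values were seen. They lie within 1 kb of the transcription start site (TSS) of LFNG (a glycosyltransferase of the Notch pathway), of ECHS1 (a mitochondrial enzyme of fatty acid oxidation) and of a lncRNA gene without a symbol, respectively.
MIR4648, HCT116 p53+/+, chr7:2562571-2562677: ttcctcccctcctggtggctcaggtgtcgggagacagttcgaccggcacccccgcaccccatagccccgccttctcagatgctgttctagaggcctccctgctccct
MIR3944, HCT116 p53-/-, chr10:135186895-135186976: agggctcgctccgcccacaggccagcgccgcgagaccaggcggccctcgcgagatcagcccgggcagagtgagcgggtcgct
MIR4734, HCT116 p53-/-, chr17:36858689-36858833: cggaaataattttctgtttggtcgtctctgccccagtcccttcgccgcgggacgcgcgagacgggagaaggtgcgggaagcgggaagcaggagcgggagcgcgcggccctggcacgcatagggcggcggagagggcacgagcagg
No run in these sequences was longer than 6 bp, so no letter is in capitals, and no repeat unit spans the peak.

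The miRNAs themselves are shown for the members that the results turn on, as mature sequences from RefSeq (GRCh38.p14), with the seed in capitals. RefSeq entries matched 66 of the 70 members.
miR-32-5p: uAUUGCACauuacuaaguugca
miR-100-5p: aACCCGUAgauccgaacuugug
miR-206: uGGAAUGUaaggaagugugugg
miR-221-3p: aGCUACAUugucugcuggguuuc
miR-15b-5p: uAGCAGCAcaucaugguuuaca
miR-16-5p: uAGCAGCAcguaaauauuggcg
miR-199a-5p: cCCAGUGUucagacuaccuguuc
miR-214-3p: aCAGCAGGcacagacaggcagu
miR-300: uAUACAAGggcagacucucucu
miR-381-3p: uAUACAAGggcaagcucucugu
Seeds were compared among the members only, with no count over all miRNA genes beside them. Over 98 mature arms, 4 seeds occurred in more than 1 member gene. AGCAGCA was shared by MIR15B and MIR16-2, AUACAAG by MIR300 and MIR381, and the other 2 (GAGGAUA and UAUACAG) by MIR1185-1 and MIR1185-2. In each case the genes sharing a seed were neighbours with the same upstream peak.

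Compared between the lists, most members had an upstream peak in 1 line and not in the other. HCT116 p53+/+ had 24 members that HCT116 p53-/- did not have, HCT116 p53-/- had 34 that HCT116 p53+/+ did not have, and 12 were in both. The 12 were 33.3% of the HCT116 p53+/+ members and 26.1% of the HCT116 p53-/- members. Over all miRNA genes that could qualify, 2.82% (95% Wilson interval 2.04 to 3.88) had an upstream peak in HCT116 p53+/+ and 3.61% (2.71 to 4.78) in HCT116 p53-/-. Among protein-coding genes the shares were 3.19% and 5.41%, and among lncRNA genes 2.36% and 3.38%. Genes in both lists made up 46.7% and 27.6% of the protein-coding genes with an upstream peak in HCT116 p53+/+ and HCT116 p53-/-, and 32.0% and 22.3% of the lncRNA genes. The miRNA share was thus below the protein-coding share in HCT116 p53-/- beyond counting error, and within counting error of it in HCT116 p53+/+. All intervals cover counting error only. The lists held 5709 peaks (HCT116 p53+/+) and 8217 peaks (HCT116 p53-/-), with no reads from which a depth could be taken. The study's alignment summary lists more aligned reads for the HCT116 p53-/- library, so that depth and cell line cannot be told apart in any comparison of the lines. With the HCT116 p53-/- list cut to its 5709 highest scores, it had 34 members against 36, so the order of the lines turned in counts of genes. The 36 genes had only 26 distinct peaks, as 10 neighbouring genes on chromosome 14 shared 1 of them. The cut list was not counted by distinct peaks, so the order in that count is not known.

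**Figure D1:**
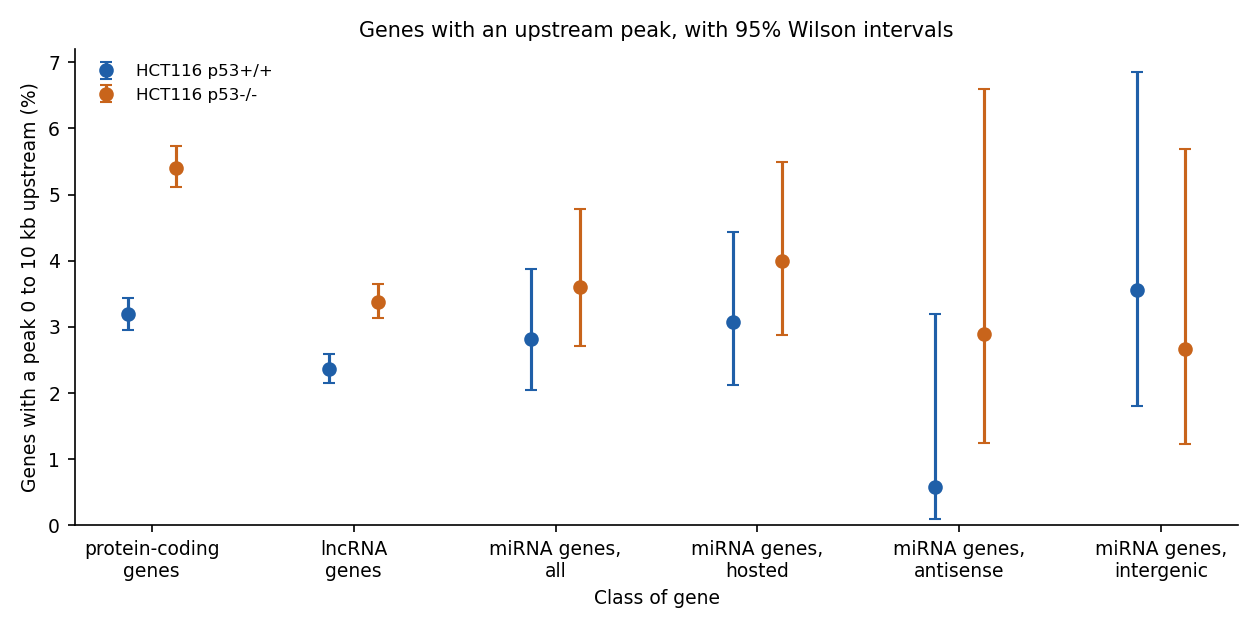
Share of genes (vertical axis, %) with a peak centred 0 to 10 kb upstream, by class of gene and peak list, with points for the share and bars for the 95% Wilson interval. The miRNA genes stood at 2.82% and 3.61%, between the lncRNA and protein-coding genes in each list, and the intervals of hosted and intergenic miRNA genes overlapped.

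The upstream peaks were fewer than the genes in HCT116 p53+/+ and more in HCT116 p53-/-. The 36 HCT116 p53+/+ members had 26 distinct peaks, because 10 genes of the chromosome 14 cluster shared 1 peak and MIR199A2 and MIR214 another. The 46 HCT116 p53-/- members had 49 distinct peaks, because 5 genes had more than 1, while 3 pairs of neighbouring genes each shared 1. Counted as loci (miRNA genes of 1 strand within 10 kb of each other counted once), 26 of 1132 loci had an upstream peak in HCT116 p53+/+, 43 in HCT116 p53-/- and 11 in both. The members were on 18 chromosomes. In HCT116 p53+/+ the nearest peak was within 1 kb of the gene start for 7 of 36 members. In HCT116 p53-/- it was so for 15 of 46.

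**Figure D2:**
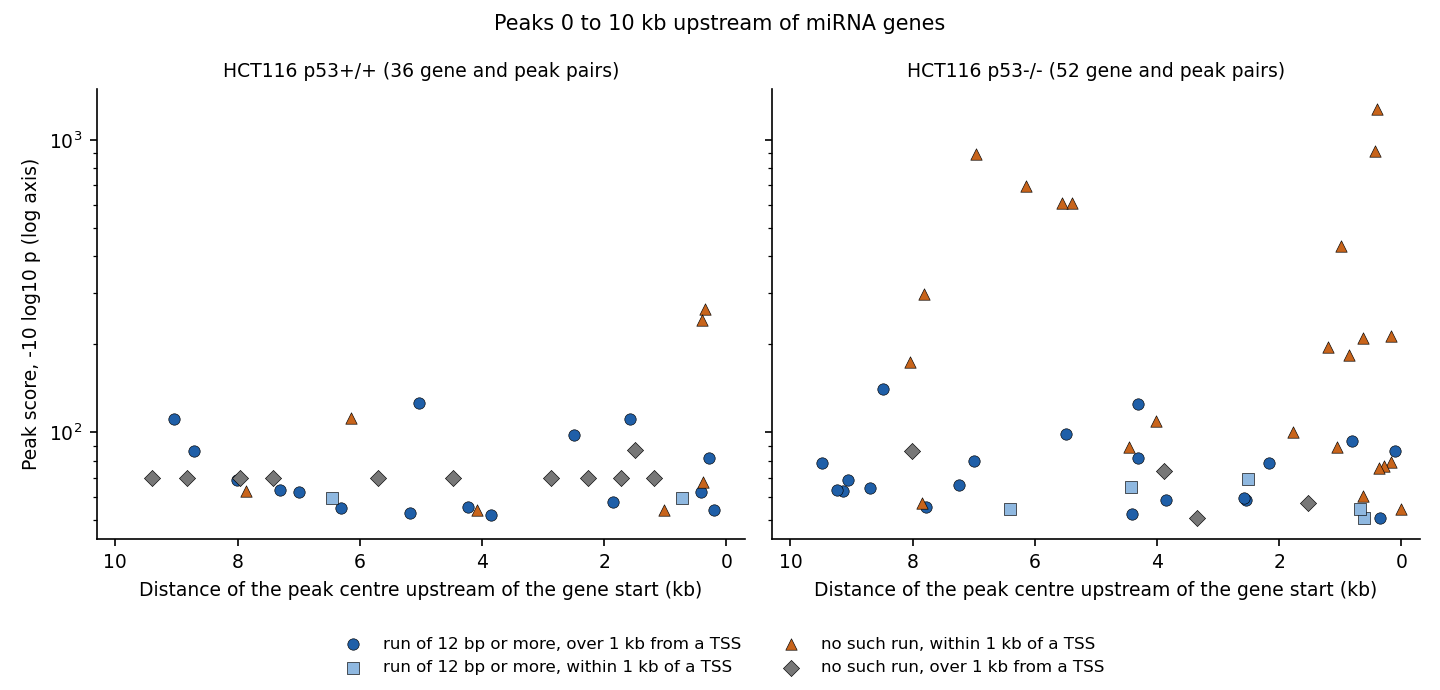
Each point is 1 gene and peak pair, with the distance of the peak centre upstream of the gene start (horizontal axis, kb, the gene start at the right) and the peak score (vertical axis, log scale), and colour and shape give the repeat and the distance to a TSS. No peak with a long run scored above 140.78, all peaks that scored higher lay near a TSS, and the row of 10 grey points at 69.8 in HCT116 p53+/+ is the 1 peak upstream of the chromosome 14 genes.

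No difference by host between the members and all miRNA genes was clear of counting error. A miRNA gene was called hosted if it lay inside a protein-coding or lncRNA gene of the same strand, antisense if only inside one of the opposite strand, and intergenic otherwise. Of 878 hosted genes 53 were members (6.04%, 95% Wilson interval 4.64 to 7.81), of 173 antisense genes 5 (2.89%, 1.24 to 6.59), and of 225 intergenic genes 12 (5.33%, 3.08 to 9.09). These intervals overlapped, and they treat genes as independent although 10 members shared 1 chromosome 14 peak. Counted by locus, the shares were 5.83% for hosted and 3.54% for intergenic loci, both within the intervals of the gene shares. The classes were thus not told apart beyond counting error. The hosts of 39 hosted members were protein-coding and those of 14 were lncRNA genes. By list, 27 hosted, 1 antisense and 8 intergenic genes were members in HCT116 p53+/+, and 35, 5 and 6 in HCT116 p53-/-. Of the 8 intergenic members in HCT116 p53+/+, 4 were genes of the chromosome 14 cluster with the same peak.

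Peaks were set against their density on the chromosomes, which took the place of random placements. The windows of 10 kb upstream of the 1276 genes, merged where they overlapped, covered 11.55 Mb. In HCT116 p53+/+ they held 26 peaks, where the density of the same chromosomes gives 23.1, a ratio of 1.12 (exact Poisson 95% interval 0.734 to 1.65). In HCT116 p53-/- they held 49 peaks, where 34.1 are given, a ratio of 1.44 (1.06 to 1.90). The same ratios downstream of the genes were 0.735 (0.428 to 1.18) and 0.792 (0.522 to 1.15). The HCT116 p53-/- ratio was 1.59 (1.12 to 2.19) upstream of hosted genes and 1.16 (0.466 to 2.39) upstream of intergenic genes. Without the miRNA genes that start within 1 kb of the TSS of a protein-coding or lncRNA gene the HCT116 p53-/- ratio fell below 1, to 0.851, and the HCT116 p53+/+ ratio to 0.98.

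The excess in HCT116 p53-/- lay near the TSSs of other genes. Sequence within 1 kb of a TSS of a protein-coding or lncRNA gene made up 16.8% of the upstream windows and 5.90% of the assembled chromosomes. In that part, HCT116 p53-/- had 12.9 peaks per Mb upstream of miRNA genes (25 peaks, 95% interval 8.35 to 19.1), against 7.13 (6.74 to 7.55) on the chromosomes and 6.05 (2.76 to 11.5) downstream of miRNA genes. In HCT116 p53+/+ the values were 4.13 (8 peaks, 1.78 to 8.14), 4.19 and 2.69 peaks per Mb. Farther from a TSS the upstream windows did not differ from the chromosomes beyond counting error in either list, with 1.87 against 1.83 peaks per Mb in HCT116 p53+/+ (18 peaks) and 2.50 against 2.60 in HCT116 p53-/- (24 peaks).

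**Figure D3:**
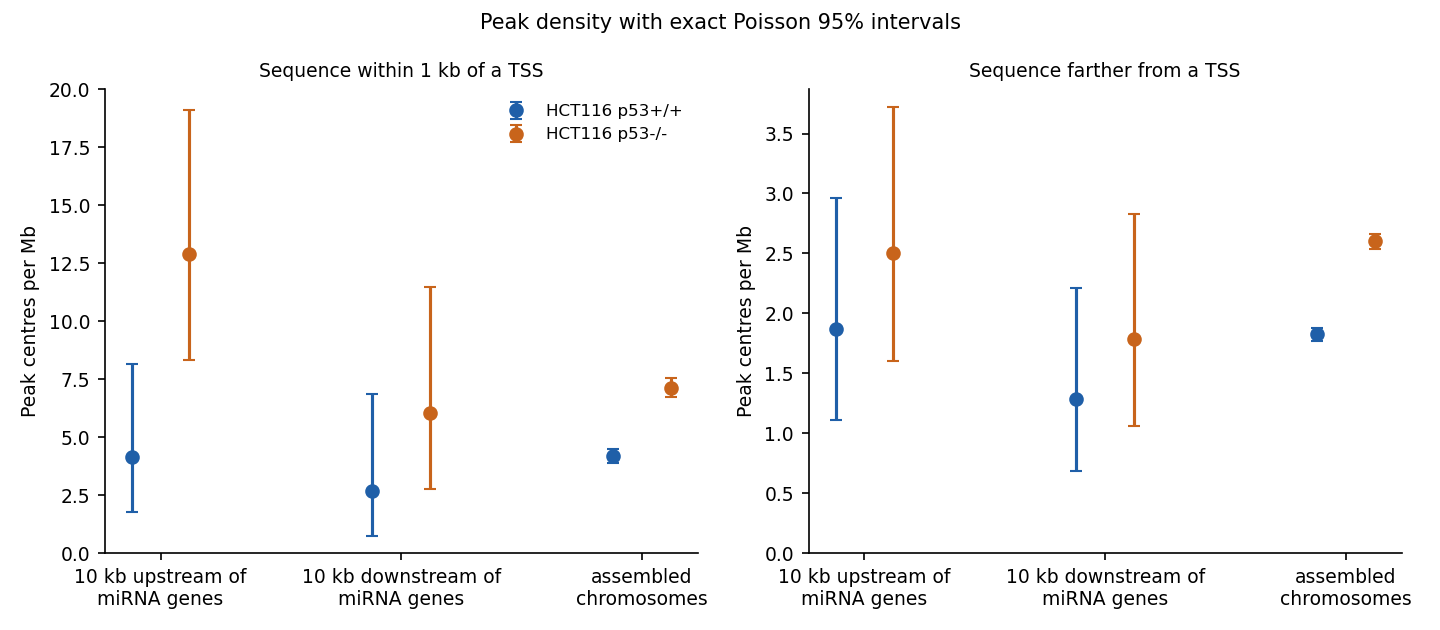
Peak centres per Mb (vertical axis) in the 10 kb windows upstream and downstream of miRNA genes and on the assembled chromosomes, in sequence within 1 kb of a TSS (left) and farther away (right), with exact Poisson 95% intervals as bars. The HCT116 p53-/- value upstream of miRNA genes near a TSS was 12.9 peaks per Mb, above the 7.13 of the chromosomes, whereas farther from a TSS the intervals included the chromosome values.

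Most upstream peaks held a T(C/G) repeat or lay at a TSS, and few had both or neither. A run of at least 12 bp was in 17 of 26 upstream peaks in HCT116 p53+/+ (65.4%, 95% Wilson interval 46.2 to 80.6) and in 24 of 49 in HCT116 p53-/- (49.0%, 35.6 to 62.5). The other peaks of the same lists held it in 60.0% and 76.2%, so that the share upstream of miRNA genes was lower than elsewhere in HCT116 p53-/- and not distinguishable from it in HCT116 p53+/+. In windows of 61 bp, the median peak length, laid end to end through the upstream sequence, 0.677% held such a run. Of the upstream peaks, 30.8% in HCT116 p53+/+ and 51.0% in HCT116 p53-/- lay within 1 kb of a TSS. Of the other peaks 12.3% and 14.4% did, so the shares over all peaks mix unlike parts near and far from a TSS. Within 1 kb of a TSS, 1 of 8 HCT116 p53+/+ and 4 of 25 HCT116 p53-/- upstream peaks had a run, and farther away 16 of 18 and 20 of 24 did. The other peaks within 1 kb of a TSS had a run in 30.2% and 32.7%, within the intervals of the upstream peaks (2.24 to 47.1 and 6.40 to 34.7). For the other peaks farther from a TSS the shares were 64.3% and 83.5%, of which the first was below the interval of the upstream peaks (67.2 to 96.9) and the second within theirs (64.1 to 93.3). In pure form, TC runs of at least 12 bp were in 8 and TG runs in 11 of the HCT116 p53+/+ peaks, and in 19 and 7 of the HCT116 p53-/- peaks. The shares were 30.8% for TC and 42.3% (25.5 to 61.1) for TG in HCT116 p53+/+, where the other peaks had 32.0% and 28.1%, both within the intervals. They were, in HCT116 p53-/-, 38.8% (26.4 to 52.8) and 14.3% (7.10 to 26.7), where the other peaks had 51.0% and 27.7%, so that there the TG share alone lay below the other peaks beyond its interval.

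**Figure D4:**
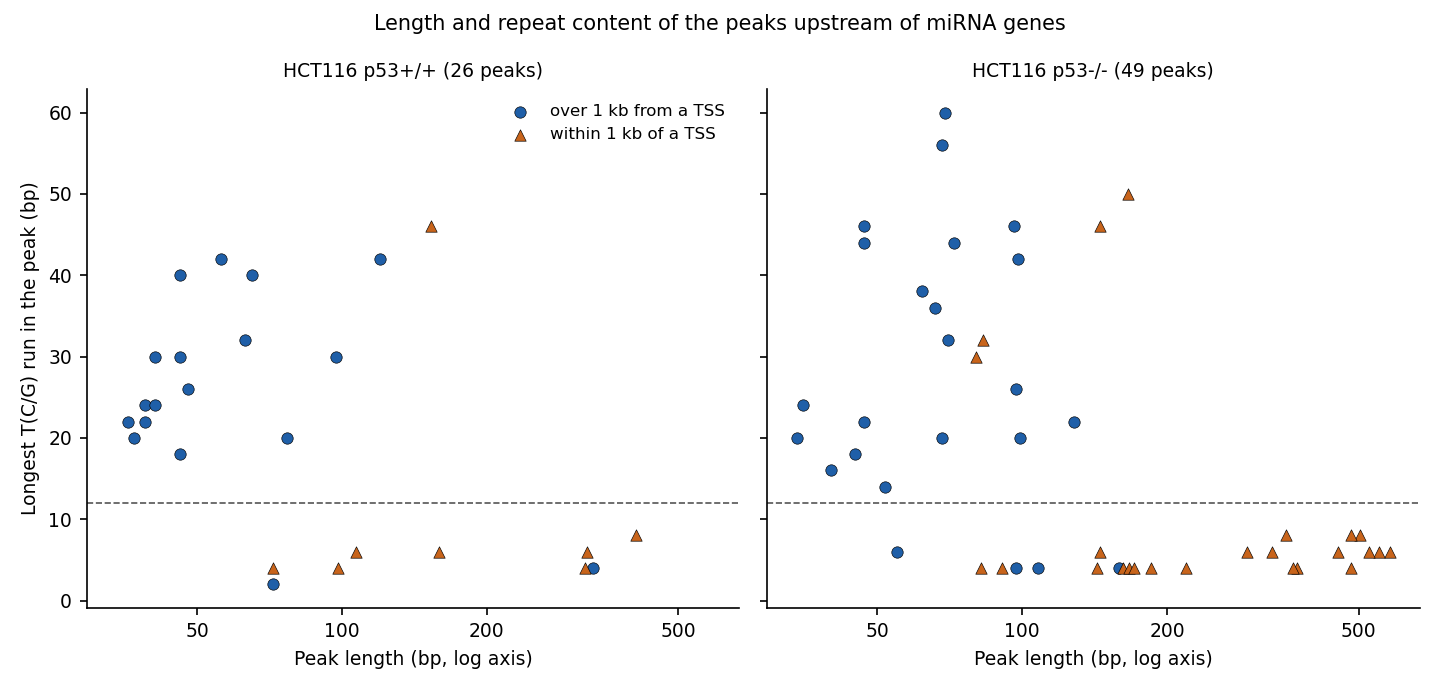
Length of each upstream peak (horizontal axis, bp, log scale) and its longest T(C/G) run (vertical axis, bp), with the limit of 12 bp dashed and a panel for each list (26 peaks in HCT116 p53+/+, 49 in HCT116 p53-/-). The 17 and 24 peaks above the line were at most 166 bp long, and all peaks longer than that, up to 581 bp, lay below the line.

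Upstream peaks with and without a run differed in length, whereas their score intervals overlapped in both lists, which does not show that the scores were alike. MACS gives each peak a score of -10 times the log10 of its p-value, which is not scaled for depth, so scores were compared within a list. In HCT116 p53-/-, upstream peaks with a run had a median length of 68.5 bp and a median score of 65.43 (95% interval from order statistics 58.68 to 79.98). Those without a run had a median length of 219 bp and a median score of 109.3 (76.65 to 214.1). In HCT116 p53+/+ the medians were 46.0 bp and 62.36 with a run (17 peaks) and 159 bp and 69.8 without (9 peaks). Run-free peaks within 1 kb of a TSS had medians of 331 bp and 183.67 in HCT116 p53-/- (21 peaks). In HCT116 p53+/+ they had 159 bp and 67.86 (7 peaks). Peaks with a run farther from a TSS had 67.0 bp and 67.27 in HCT116 p53-/- (20 peaks). In HCT116 p53+/+ they had 46.0 bp and 62.89 (16 peaks). All upstream peaks of a list had a median score of 65.64 in HCT116 p53+/+, near the 67.86 of the other peaks, and of 78.51 (66.05 to 93.19) in HCT116 p53-/-, near the 73.93 of the other peaks.

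Many repeat peaks had at their centre a sequence that was counted more than once in the genome. The 31 bases at the centre of the peak were found more than once for 12 of 17 upstream peaks with a run in HCT116 p53+/+. In HCT116 p53-/- this held for 13 of 24, and the highest count was 183643. Without a run, it held for 0 of 9 and 2 of 25. Overlapping matches on both strands were counted, so that a repeat longer than 31 bases could count itself several times. A low count therefore need not mean a second place in the genome. The part of repeated sequence in these peaks was not tested. Most runs upstream of miRNA genes had no peak. The windows held 1461 runs of at least 12 bp, of which 1.44% lay under an HCT116 p53+/+ peak and 2.74% under an HCT116 p53-/- peak. Runs of 12 to 19 bp lay under a peak in 0.279% and 1.21% of cases, and runs of 40 to 59 bp in 9.46% and 10.8%. The longest run under an upstream peak, of 60 bp, was that of MIR3200 in HCT116 p53-/- (score 93.19), a gene named after its values were seen.

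A p53 consensus was rare in these peaks. The p53 consensus element of 10 bp, which reads the same on both strands, was searched within the peaks and 50 bp on each side. It was in 0 of 26 HCT116 p53+/+ upstream peaks, which allows a share of up to 11.5% (3 peaks of the total; the Wilson limit is 12.9%), and in 1 of 49 HCT116 p53-/- upstream peaks (2.04%, 95% Wilson interval 0.361 to 10.7). The other peaks of the lists held it in 2.62% and 3.18%, and windows of 161 bp through the upstream sequence in 4.10%. The peak with the consensus was the HCT116 p53-/- peak of MIR219-1 at the TSS of SLC39A7, a zinc transporter gene.

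Members in both lists were described in full. Of these 12 genes, 11 had their peak at the same place in both lines, and for 9 of these 11 it lay within 1 kb of a TSS. MIR4523 had the highest score among the upstream peaks of each list. Its hairpin (chromosome 17, 27717680 to 27717748, plus strand) is inside TAOK1, a kinase gene. Its peak was centred 0.343 kb upstream with a score of 263.42 in HCT116 p53+/+ and 0.395 kb upstream with a score of 1271.15 in HCT116 p53-/-, at the TSS of TAOK1. In the lists, 1.02% and 0.499% of the peaks scored higher. MIR933, in the gene of the transcription factor ATF2 (chromosome 2, 176032361 to 176032437, minus strand), had peaks at the ATF2 TSS with scores of 242.4 at 0.397 kb and 918.65 at 0.43 kb. Both genes stood near the top of each list.

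MIR1271, in ARL10 (chromosome 5, 175794949 to 175795034, plus strand), had a peak at the TSS of KIAA1191, 6.14 kb upstream, with scores of 111.57 and 696.04. MIR3912, an intergenic gene on the same chromosome (170813660 to 170813764, minus strand), had a peak at the TSS of NPM1 (nucleophosmin), with a score of 54.17 in HCT116 p53+/+ at 1.02 kb and 432.42 in HCT116 p53-/- at 0.988 kb. These scores were far apart within the lists, as 87.5% of the HCT116 p53+/+ peaks and 2.87% of the HCT116 p53-/- peaks scored higher. MIR4648, in LFNG (sequence above), scored 54.43 and 109.28 at 4.08 and 4.02 kb. MIR3678, intergenic and beside GRB2 (a signalling adaptor), scored 67.86 and 75.33 at 0.378 and 0.372 kb.

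MIR4512, in SNAPC5 (a subunit of the complex that starts snRNA transcription), had 1 HCT116 p53+/+ peak at 7.87 kb (score 63.06). In HCT116 p53-/- it had 2 peaks, at 7.84 kb (57.49) and 8.04 kb (174.0). Both overlapped the HCT116 p53+/+ peak, and they lay at the TSSs of RPL4, a ribosomal protein gene, and ZWILCH, a kinetochore gene.

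The remaining shared peaks were repeats. MIR199A2 and MIR214 are made from DNM3OS, a lncRNA antisense within DNM3. The hairpins are on chromosome 1, minus strand, at 172113675 to 172113784 and 172107938 to 172108047. Their common peak, with a run of 46 bp, was within 1 kb upstream of a DNM3OS TSS and scored 59.45 in HCT116 p53+/+ and 54.68 in HCT116 p53-/-. It was 0.722 and 0.671 kb upstream of MIR199A2 and 6.46 and 6.41 kb upstream of MIR214. MIR3146, in POLR1F (an RNA polymerase I subunit), had its CA repeat peak at 8.71 kb in both lists, with scores of 86.69 and 64.3. MIR4452, in MAPK10 (the kinase JNK3), scored 110.92 and 68.49 at 9.05 and 9.06 kb.

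MIR219-1 was in both lists by different peaks. It is antisense to a lncRNA gene (chromosome 6, 33175612 to 33175721, plus strand), and miR-219 is known from the brain and from myelinating oligodendrocytes. In HCT116 p53+/+ its peak was a 41 bp repeat peak 1.85 kb upstream (score 57.86), and in HCT116 p53-/- a 526 bp peak 6.97 kb upstream (score 897.9).

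The scores of the shared peaks were also set side by side as ranks, the percentage of the peaks in the same list that scored higher. Where several HCT116 p53-/- peaks overlapped a peak, the highest-scoring was taken. The lists differ in length and depth, so a difference in rank does not show a change in binding at the peak. All 7 repeat-free shared peaks stood nearer the top of the HCT116 p53-/- list than of the HCT116 p53+/+ list, and all 3 with a run stood farther from it. For MIR4512 this rests on the peak of score 174.0 (6.63% scored higher, against 61.6% in HCT116 p53+/+), since its other HCT116 p53-/- peak had 84.1% above it. Among the other shared peaks of the lists, 73.9% of 521 without a run and 56.2% of 624 with a run stood nearer the top in HCT116 p53-/-. The 10 peaks were too few to be told apart from these.

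**Figure D5:**
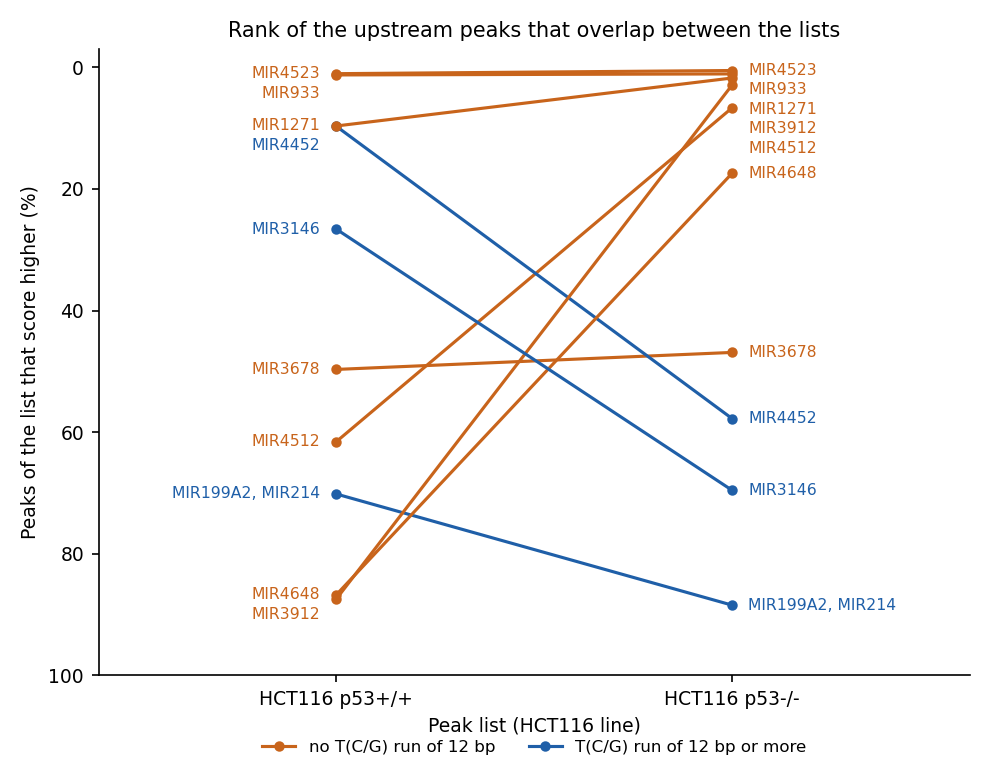
Rank of the 10 HCT116 p53+/+ upstream peaks that overlapped an HCT116 p53-/- peak, as the percentage of each list that scored higher (vertical axis, the highest scores at the top), with lines joining the peaks of a gene and the highest-scoring HCT116 p53-/- peak where several overlapped. The 7 peaks without a run stood nearer the top in HCT116 p53-/-, with the widest gap for MIR3912 (87.5% and 2.87%), and the 3 with a run farther from it, in lists of unequal length.

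Sharing followed the TSS. Of the upstream peaks within 1 kb of a TSS, 8 of 8 in HCT116 p53+/+ and 9 of 25 in HCT116 p53-/- overlapped a peak of the other list by at least 1 bp. Farther from a TSS 2 of 18 and 2 of 24 did. The other peaks of the lists were shared in 56.5% and 29.7% of cases near a TSS and in 15.0% and 10.7% farther away. The Wilson interval of 8 of 8 reached down to 67.6%, above the 56.5%, and the other 3 intervals included the shares of the other peaks.

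Hosted members were examined for peaks at the promoter of the host. A peak lay within 1 kb upstream of a host TSS for 5 of 27 hosted members in HCT116 p53+/+ and for 16 of 35 in HCT116 p53-/-. Over all 878 hosted miRNA genes the shares were 3.42% and 5.69%. In 4 of the 5 and 15 of the 16 cases the promoter peak was the upstream peak that had chosen the gene. The higher share among members thus follows from the rule and does not show that the promoters of their hosts are richer in peaks. The upstream peak lay within the host itself for 15 of 27 and 20 of 35 hosted members.

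MIR15B and MIR16-2 were such members, found in HCT116 p53-/- only. They belong to the miR-15/16 family, known to repress BCL2 and cyclins, and lie side by side in SMC4, a condensin gene (chromosome 3, plus strand, 160122376 to 160122473 and 160122533 to 160122613). Their common peak (481 bp, score 608.96, with 2.01% of the list scoring higher) lay 14 bp past the TSS of IFT80, an intraflagellar transport gene beside SMC4, 5.39 and 5.55 kb upstream. The nearest upstream peak in HCT116 p53+/+ was 825.8 kb from MIR15B.

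Nearest to their peaks were MIR4428 (0.203 kb, score 54.06, in an intron of RYR2) and MIR3137 (0.281 kb, score 81.5, in XXYLT1) in HCT116 p53+/+, both with repeat peaks. In HCT116 p53-/- MIR3652 was nearest, with a peak 12 bp upstream of its start (score 54.68) at the TSS of its host HSP90B1, an endoplasmic reticulum chaperone. It was followed by MIR587 (0.102 kb, score 86.16), with a TC repeat peak. MIR658 in ANKRD54 (0.166 kb, score 214.14), MIR4734 (0.177 kb, score 79.3) and MIR423 in NSRP1 (0.283 kb, score 76.65) had repeat-free peaks near a TSS. High scores in HCT116 p53+/+ that were not in both lists belonged to MIR32 (125.64) and to MIR4526 in LDLRAD4 (110.92), whose peaks were repeats.

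Several HCT116 p53-/- members had more than 1 upstream peak. MIR7-3, a copy of miR-7 in MIR7-3HG on chromosome 19, had repeat peaks at 2.52 kb (score 69.06, run of 30 bp) and 4.41 kb (52.66, run of 56 bp). MIR4482-1 had peaks at 0.625 kb (60.49) and 0.861 kb (183.67), both at the TSS of GSTO2, a glutathione transferase gene. MIR658 had, beside its nearest peak, a second at 4.46 kb (89.41) that it shared with MIR659. MIR4461, in PCBD2, had 3 peaks at 1.53, 3.34 and 3.88 kb with scores of 57.53, 50.9 and 73.9. Between 50.7% and 64.3% of the 25-base words of these 3 peaks were also in the mitochondrial genome, whereas no such word was found in any other upstream peak. Whether their reads came from mitochondrial DNA was not tested.

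The chromosome 14 cluster gave the largest group with 1 peak. It lies in the imprinted region at 14q32, whose miRNAs are made from long maternal transcripts. An HCT116 p53+/+ peak from 101504673 to 101505004 (332 bp, score 69.8, with 46.1% of the list scoring higher), in an intron of MEG8 and without a run, was upstream of MIR376C at 1.18 kb, MIR654 at 1.72 kb, MIR376A1 at 2.27 kb, MIR300 at 2.86 kb, MIR1185-1 at 4.48 kb, MIR1185-2 at 5.70 kb, MIR381 at 7.42 kb, MIR487B at 7.95 kb, MIR539 at 8.82 kb and MIR889 at 9.40 kb. Although without a T(C/G) run, this peak was mostly a simple repeat of TGG units with breaks. A run counts only TC and TG units, and the longest there was 4 bp. The next gene of the cluster, MIR544A, was outside the limit at 10.2 kb. In HCT116 p53-/- the nearest upstream peak was between 414.7 and 422.9 kb from these genes.

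Some members carry the names of miRNAs that the study singled out. Of the 9 such genes placed here, 4 were members. The study assigned peaks to genes with a nearest downstream gene function, which is another rule than the one used here. A named gene that was not a member is thus not shown to be wrong. MIR32, in an intron of TMEM245 (chromosome 9, 111808509 to 111808578, minus strand), had its CA repeat peak 5.03 kb upstream in HCT116 p53+/+ (score 125.64), and its nearest HCT116 p53-/- peak was at 73.92 kb. TMEM245 also had an HCT116 p53+/+ peak within 1 kb upstream of a TSS, which was another peak. MIR100, in MIR100HG (chromosome 11, 122022937 to 122023016, minus strand), had a TC repeat peak 6.31 kb upstream in HCT116 p53+/+ (score 54.99), and its nearest HCT116 p53-/- peak was at 966.7 kb. The same peak was 12.02 kb upstream of MIRLET7A2, which is made from the same transcript.

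MIR206, a muscle miRNA (chromosome 6, 52009147 to 52009232, plus strand, intergenic), had its GA-rich peak 8.02 kb upstream in HCT116 p53-/- (score 86.63), with none nearer than 303 kb in HCT116 p53+/+. MIR221, known to repress the cell cycle inhibitor CDKN1B, lies in MIR222HG (chromosome X, 45605585 to 45605694, minus strand). Its repeat peak was 0.61 kb upstream in HCT116 p53-/- (score 50.8, with 97.6% of the list scoring higher), and the nearest HCT116 p53+/+ peak was at 103.9 kb. For MIR222, the same peak was centred 226 bp downstream of the gene start, so that MIR222 was not a member. The remaining 4 placed genes had their nearest upstream peak at 110.1 kb or farther. The study chose these names from the same lists, so they are not independent of the peaks.

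No gene of the other listed miRNA groups was a member. The groups were matched by gene, so MIR16-1 was in the p53-responsive list and the member MIR16-2, of the same family, was not. Of 13 listed p53-responsive genes 10 were placed, and none of these, among them MIR34A, MIR34B, MIR34C, MIR192 and MIR107, had a peak within 10 kb upstream, and the nearest was 50.03 kb from MIR34A in HCT116 p53+/+. The same was found for 10 placed genes of 17 listed as oncogenic in colorectal cancer (nearest 23.2 kb from MIR183 in HCT116 p53+/+), for the 5 listed genes of the miR-200 family (nearest 25.57 kb from MIR200C in HCT116 p53-/-) and for the 12 listed let-7 genes (nearest 12.02 kb from MIRLET7A2). With 5.49% of all miRNA genes as members, groups of this size could not be told apart from the background. Listed genes that were not placed are not analysed here.

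At the limit of the rule, MIR889 (9.40 kb) in HCT116 p53+/+ and MIR153-2 (9.49 kb, score 78.51) in HCT116 p53-/- were just inside. MIR1290 (10.1 kb, score 64.51) in HCT116 p53+/+ and MIR302E (10.1 kb, score 63.36) in HCT116 p53-/- were just outside. On the other side of the gene start, MIR4470 had an HCT116 p53-/- peak of score 510.77 centred 103.5 bp downstream, and was not a member.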

How the data were processed

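Reads of 1 anti-SMAR1 library per cell line were processed by the authors, and the submitters' processing notes name CASAVA, cutadapt 1.2.1, FastQC 0.10.1, Bowtie2 2.2.1, SAMtools 0.1.19 and MACS 1.4.2. The authors deposited 1 peak list per library, with chromosome, start, end and the MACS score (-10 times the log10 of the p-value, at least 50.0 in these lists). They also filtered peaks by fold enrichment, which is not a column of the lists. The lists hold no reads, so the depth is unknown from them. The libraries were amplified, and reads that align to repeats may be placed at more than 1 site.

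Gene positions came from GENCODE 44 mapped to GRCh37, and sequences from GRCh37 and RefSeq. Peaks were placed by their centre. TSSs were the transcript starts of protein-coding and lncRNA genes. Wilson intervals were used for shares and exact Poisson intervals for densities, and no test was run, since each line had 1 library. The T(C/G) run was searched on both strands as TC or TG units without a break. The members and gene lists were chosen with earlier results of these data known. Named were members in both lists, the 5 highest scores and 5 nearest peaks of each list, members with several peaks or with a peak shared by at least 3 genes, members of the listed miRNA groups, and genes at the limit. Sequences were read with pysam 0.24.0 in Python 3.11.15, and tables with pandas 2.3.3 and numpy 2.4.6. Intervals came from scipy 1.17.1, words were counted with numba 0.67.0, and plots were drawn in matplotlib 3.10.9. The functions were tested on simulated data. Alternatives changed the distance limit, score threshold, list size, host definition, run length, overlap and counting unit.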

Additional observations from a re-analysis of the deposited data

How the results depend on the processing

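Of 72 alternative values for 23 results, 58 stayed within the interval or 1.5 times of the main value and 14 moved beyond it. With a limit of 5 kb the members were 42 in either list, 20 in HCT116 p53+/+, 28 in HCT116 p53-/- and 6 in both. Of the study-named genes, 1 was within that limit. With 20 kb they were 125 in either list, 64 in HCT116 p53+/+ and 79 in HCT116 p53-/-. At that distance 1 let-7 gene (MIRLET7A2) came in. With only peaks at or above the median score of their list, HCT116 p53+/+ had 22 members and HCT116 p53-/- 29, with 4 in both, and a T(C/G) run was in 32.1% of the HCT116 p53-/- upstream peaks. Without miRNA genes that start within 1 kb of the TSS of another gene, the HCT116 p53-/- density ratio was 0.851. The cause of these moves was not tested beyond what the alternatives themselves change. No paired analysis was possible because each line had 1 anti-SMAR1 library. For the same reason no difference between the lines can be set against the spread between replicates, and depth, which the lists do not give and which was lower for HCT116 p53+/+ by the study's alignment summary, cannot be told apart from the cell line. The gene start is the hairpin and not the promoter of the primary transcript.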
